A study of Homo sapiens with 6 samples.

Results

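The genes described here encode proteins of the core spliceosome apart from the SF3B complex: the U1 and U2 snRNP proteins, the Sm ring, the factors that recognise the 3′ end of the intron with U2, the U5 and U4/U6.U5 tri-snRNP proteins, and proteins of the catalytic steps. They were taken by gene symbol from a list of 40 names, and each name matched exactly 1 of the 60675 entries of the deposited table. Some of them, such as U2AF1, U2AF2 and SF1, act with the snRNPs without being stable snRNP subunits. The libraries came from HCT116, a human colorectal carcinoma line, in which a form of the SF3B subunit PHF5A was stably expressed. The K29Q cells expressed PHF5A with glutamine in place of lysine 29, a substitution commonly used to mimic an acetylated lysine, and the WT cells expressed unmutated PHF5A. Each group had 3 libraries, K29Q 1 to 3 and WT 1 to 3, and the labels leave unsaid whether these were grown as separate cultures or stable lines, so p-values measure the spread between libraries, which may be technical. The labels do not give the promoter of the introduced gene or the state of the endogenous PHF5A.

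Spliceosomes assemble anew on each intron. The U1 snRNP pairs with the 5′ splice site, SF1 and the U2AF heterodimer mark the branch site, the pyrimidine tract and the 3′ splice site, and the U2 snRNP, which carries SF3A and SF3B, then pairs with the branch site. The U4/U6.U5 tri-snRNP joins, helicases unwind and remodel the RNA pairings, and the PRPF19 complex (NTC) stabilises the catalytic core. PHF5A sits in SF3B beside the branch site pocket, so the proteins listed here are its neighbours and partners in the same machine. The comparison of K29Q with WT cells asks whether their transcript levels differed.

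The values are FPKM, fragment levels scaled by transcript length and by library size, which allow levels to be compared between genes. Estimated depths lay between 33600000 fragments (K29Q 3) and 40000000 fragments (K29Q 2). PHF5A itself had 41.4, 45.9 and 45.04 FPKM in K29Q 1 to 3, against 32.4, 34.4 and 32.7 FPKM in WT 1 to 3, a log2 fold change of 0.40 (SE 0.064), and it missed the adjusted threshold (limma, adjusted p = 0.11). The exact permutation test, two-sided, gave p = 0.1, the smallest that 3 against 3 libraries allow. Gene totals do not tell the introduced PHF5A from the endogenous one. Of 8 epithelial markers 6 had a mean FPKM of at least 1, whereas the intestinal genes VIL1 and LGALS4 stayed below 0.2 FPKM in every library. The epithelial markers summed to between 1146.4 and 1200.1 FPKM in the K29Q libraries and between 1247.3 and 1399.6 FPKM in the WT libraries, and the part of this difference in the results below was not tested. Of 9 fibroblast and endothelial markers 1 (COL1A1) and of 8 leukocyte markers 1 (CD68) had a mean FPKM of at least 1. The fibroblast and endothelial list summed to between 4.86 and 6.24 FPKM in the K29Q libraries and between 4.76 and 5.68 FPKM in the WT libraries, and the leukocyte list to between 1.96 and 2.46 FPKM in the K29Q libraries and between 1.99 and 2.49 FPKM in the WT libraries. DCN, LUM and CD3D were listed at 0 in all 6 libraries. WT 1 stood apart from the other WT libraries: on the first principal component of all tested genes it lay at −4.72, beside the K29Q libraries (−14.9 to −4.76) and away from WT 2 and WT 3 (13.2 and 17.99). Each column header carries a run code, read here as the flow cell, although no header or label names it so. The code called flow cell A here held K29Q 1, K29Q 2 and WT 2. The code called flow cell B held K29Q 3, WT 1 and WT 3.

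The lowest value among the 40 genes was 4.54 FPKM, and all 40 were among the 13261 genes tested, those that reached 1 FPKM in 3 libraries or more. Of the 40 genes 0 passed an adjusted p of 0.05 in either direction (limma with Benjamini-Hochberg adjustment over 13261 genes), where 0.0528% of all tested genes passed (0.0302% higher and 0.0226% lower in K29Q), and the smallest adjusted p was 0.378 (PRPF19). At an unadjusted p under 0.05 there were 4 of the 40 genes, 1 higher in K29Q (DDX46) and 3 lower (PRPF4, PRPF8 and PRPF19), where 12.5% of all tested genes reached that level (7.65% higher and 4.89% lower). With a flow cell term in the fit there were again 4, but 3 higher (DDX46, U2SURP and CDC5L) and 1 lower (PRPF19), where 12.7% of all tested genes lay (8.91% higher and 3.84% lower). Differences were small. The 95% confidence interval of the fold change lay within 1.5-fold in both directions for 39 genes, all but DDX46, and within 0.32 on the log2 scale for 32 genes. Fold changes are K29Q minus WT on the log2(FPKM + 1) scale.

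Most of the small differences pointed the same way. The log2 fold change was below 0 for 32 of the 40 genes and above 0 for 8, with a median of −0.08, while 49.0% of all tested genes lay below 0 and their median was 0.00. Among all 6784 genes with a mean of at least 5 FPKM the median was −0.02. Of the 40 genes 39 were among these, with 31 below 0 and a median of −0.08. With quantile normalization 29 of the 40 genes lay below 0 and 11 above, and after correction for GC content and length 30 lay below and 10 above. The medians over all tested genes were −0.011 and −0.004 in these settings. The 3 K29Q values all lay below the 3 WT values for 10 genes, and all above them for 0 genes, where 9.00% of all tested genes lay lower without overlap and 8.80% higher, 17.8% together. Among all genes with a mean of at least 5 FPKM, 11.3% lay lower without overlap and 7.15% higher. The 10 genes were SNRPE, SNRPA1, PUF60, EFTUD2, PRPF3, PRPF4, PRPF8, PRPF19, DHX16 and DHX38. Within both flow cells the difference was below 0 for 25 genes and above 0 for 5, against 29.0% and 33.6% of all tested genes. Relative to the WT mean, the median of the 40 genes on the log2 scale was −0.08, −0.05 and −0.09 in K29Q 1 to 3, against −0.03, 0.02 and 0.01 in WT 1 to 3. No test was made over the genes as a list, because they were chosen with results of these data known.

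**Figure D1:**
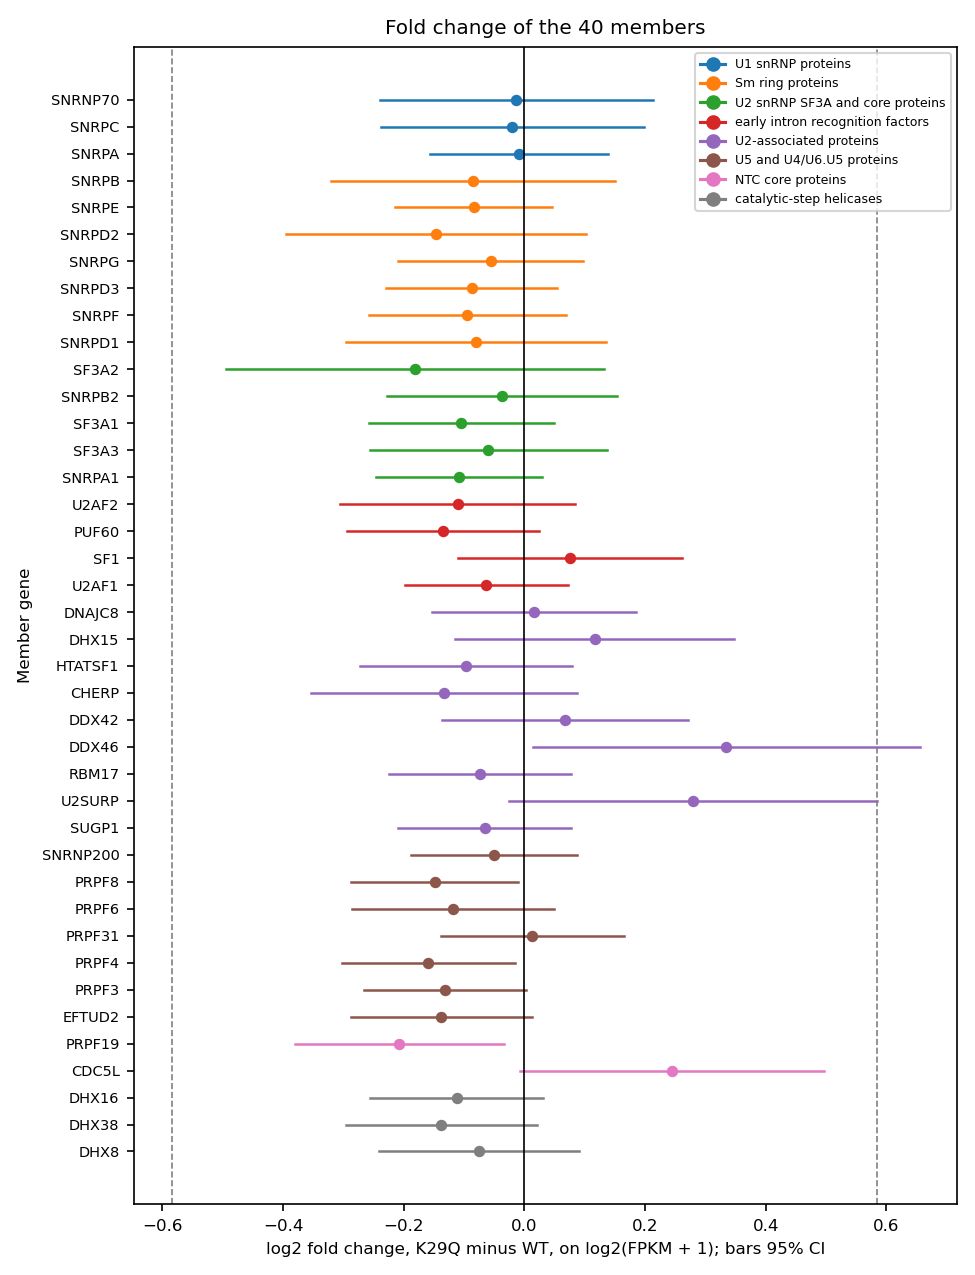
Log2 fold change (K29Q minus WT, on log2(FPKM + 1)) of the 40 genes, coloured by role, with bars for the 95% confidence interval of the limma fit over 3 K29Q and 3 WT libraries; dashed lines mark 1.5-fold. Of the 40 points 32 lie below 0, the interval of DDX46 runs past the upper dashed line, and that of U2SURP ends at it.

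The 40 genes covered a wide range of levels. SNRPB, the Sm B/B′ protein, was the most abundant with 363, 336 and 325 FPKM in K29Q 1 to 3, against 336, 336 and 419 FPKM in WT 1 to 3. SUGP1, a G-patch protein that binds SF3B1 and activates the helicase DHX15, was the least abundant with 4.54, 4.57 and 4.65 FPKM in K29Q 1 to 3, against 4.61, 4.92 and 5.02 FPKM in WT 1 to 3. In both genes the groups overlapped, and the log2 fold changes were −0.09 (SE 0.0997, limma, adjusted p = 0.732) for SNRPB and −0.07 (SE 0.061, adjusted p = 0.66) for SUGP1. The SNRPB difference had no stable sign: it was 0.054 within flow cell A, −0.21 within flow cell B and 0.021 without WT 3. The 40 genes together summed to 1576.3, 1548.5 and 1500.1 FPKM in K29Q 1 to 3, against 1566.7, 1600.6 and 1726.7 FPKM in WT 1 to 3, and SNRPB alone made up between 21.0% and 24.3% of that sum in each library. The spread between replicates was also small, with a median SD of 0.078 on the log2 scale over the 40 genes and of 0.109 over all tested genes. PRPF3 had the smallest SD (0.030) and DDX46 the largest (0.202).

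**Figure D2:**
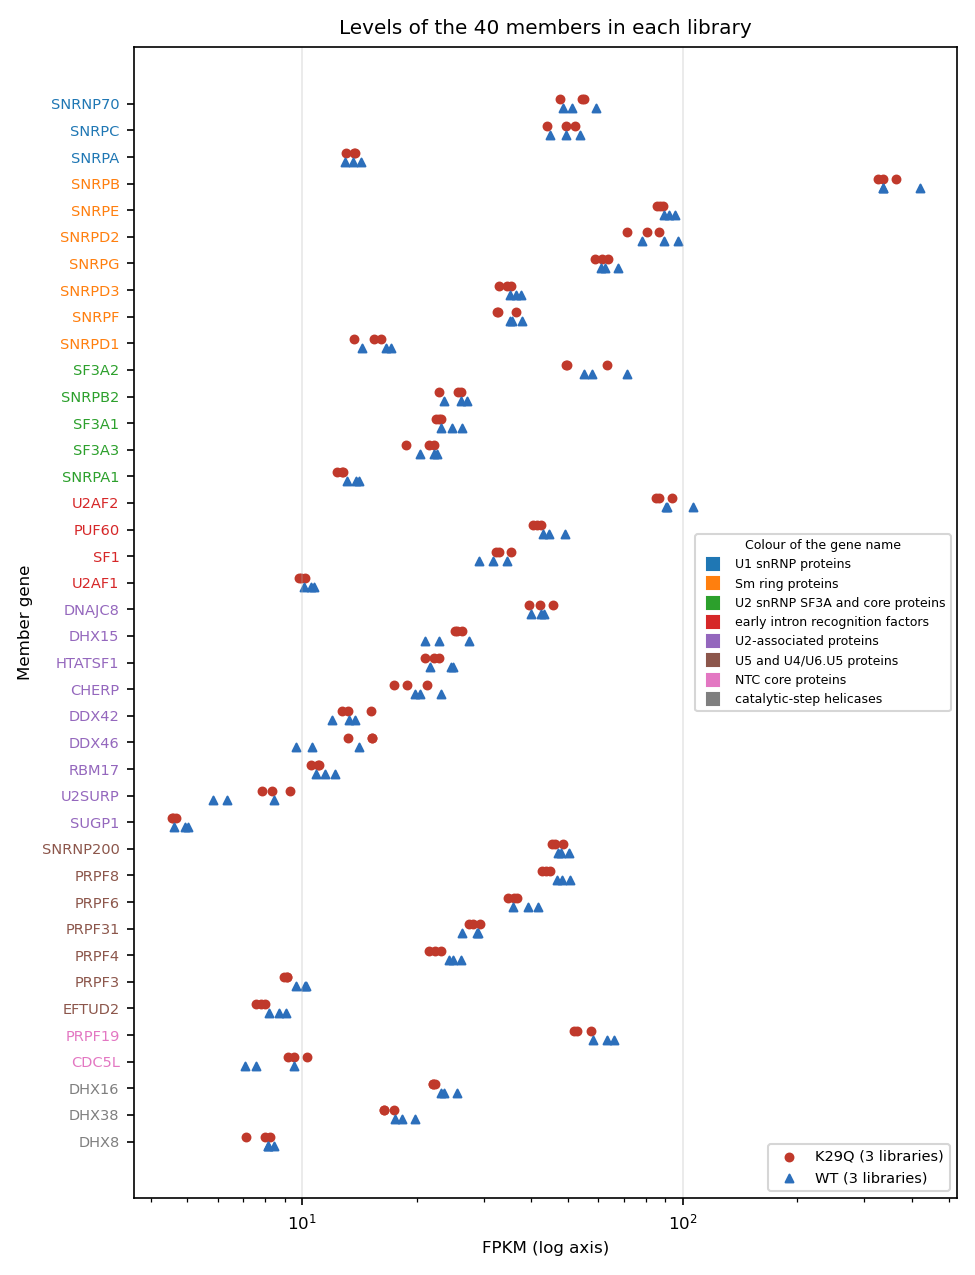
FPKM (log axis) of the 40 genes in each library, with K29Q as red circles above WT as blue triangles, ordered by role and then by mean FPKM. Levels run from 4.54 FPKM for SUGP1 in K29Q 1 to 419 FPKM for SNRPB in WT 3, and the groups of most genes overlap.

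U2AF1, the small subunit of the U2AF heterodimer that contacts the AG at the 3′ splice site, needs care in this table, because the genome assembly holds a near-identical copy. U2AF1 (ENSG00000160201) lies on chromosome 21 from 43092956 to 43107587 and U2AF1L5 (ENSG00000275895) on the same chromosome from 6484623 to 6499261, both on the minus strand and both annotated as protein coding (GENCODE 29, GRCh38). Both genes are annotated with a pair of full-length coding forms that use alternative versions of an internal exon, and in each form the 720 coding bases of U2AF1 and U2AF1L5 differed at 0 positions. Coding bases 121 to 210, counted from the A of the start codon, are printed for the 2 forms to show the stretch in which they differ and that neither form separates the genes. Capitals mark the 23 bases that differ between the forms, and each line is the sequence of both genes in the GENCODE 29 transcripts.
U2AF1 and U2AF1L5, first form: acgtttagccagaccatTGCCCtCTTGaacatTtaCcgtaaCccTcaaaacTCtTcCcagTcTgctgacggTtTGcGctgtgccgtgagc
U2AF1 and U2AF1L5, second form: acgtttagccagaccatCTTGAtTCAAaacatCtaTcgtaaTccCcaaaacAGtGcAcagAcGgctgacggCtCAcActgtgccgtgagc
A fragment from this stretch can tell the forms apart but not the genes, so the level of each entry depends on how the authors' software divided such fragments.

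U2AF1 had 10.2, 9.94 and 9.81 FPKM in K29Q 1 to 3, against 10.1, 10.7 and 10.5 FPKM in WT 1 to 3. U2AF1L5 was listed higher than U2AF1, with 17.6, 18.1 and 17.1 FPKM in K29Q 1 to 3, against 17.9, 18.7 and 19.1 FPKM in WT 1 to 3. U2AF1 thus held between 35.4% and 36.6% of the sum of both entries in the K29Q libraries and between 35.6% and 36.4% in the WT libraries, which is nearly the same division in every library. Summed, the entries had 27.6 ± 0.611 FPKM in K29Q and 29.0 ± 0.868 FPKM in WT (SD, n = 3 each). The log2 difference was −0.07 for the sum and −0.06 for U2AF1 alone (SE 0.057, limma, adjusted p = 0.656). The partner U2AF2, which binds the pyrimidine tract, had 93.5, 86.8 and 84.9 FPKM in K29Q 1 to 3, against 90.2, 90.8 and 106 FPKM in WT 1 to 3, and its log2 fold change was −0.11 (SE 0.082, adjusted p = 0.59). Its level was thus above that of both U2AF1 entries together in every library.

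The other factors of early intron recognition were SF1 and PUF60. SF1, which binds the branch site before U2 arrives, had 35.3, 32.4 and 32.9 FPKM in K29Q 1 to 3, against 29.1, 31.8 and 34.6 FPKM in WT 1 to 3. The groups overlapped, the log2 fold change was 0.08 (SE 0.078, limma, adjusted p = 0.698), and SF1 was the one gene of these 4 above 0. PUF60, a U2AF2-related protein that binds uridine-rich tracts, had 42.4, 41.3 and 40.4 FPKM in K29Q 1 to 3, against 43.1, 44.6 and 49.1 FPKM in WT 1 to 3. The K29Q values all lay below the WT values, by a log2 fold change of −0.13 (SE 0.067, adjusted p = 0.446).

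The U1 snRNP proteins hold the particle at the 5′ splice site, and their differences were close to 0 over all 6 libraries. For SNRNP70 and SNRPC they were not so within each flow cell. SNRNP70, which binds the first stem loop of U1 snRNA, averaged 52.3 ± 4.12 FPKM in K29Q and 52.9 ± 5.65 FPKM in WT (SD, n = 3 each). SNRPC, which steadies the pairing with the 5′ splice site, averaged 48.6 ± 4.13 FPKM in K29Q and 49.3 ± 4.49 FPKM in WT. SNRPA, which binds another U1 stem loop, averaged 13.5 ± 0.395 FPKM in K29Q and 13.6 ± 0.658 FPKM in WT. The groups overlapped in all 3, the log2 fold changes lay between −0.02 and −0.01, and the smallest adjusted p was 0.943 (limma). The flow cells gave log2 differences of opposite sign, 0.17 in A and −0.20 in B for SNRNP70, −0.16 in A and 0.073 in B for SNRPC, and 0.013 in A and −0.053 in B for SNRPA. WT 2 was the only WT library in A, and K29Q 3 the only K29Q library in B.

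The 7 Sm proteins form the ring around the snRNAs of U1, U2, U4 and U5. All 7 had log2 fold changes below 0, between −0.15 (SNRPD2) and −0.06 (SNRPG), with a median of −0.09. Within both flow cells 4 of the 7 lay below 0, where 29% of all tested genes did. Of the 7 genes 0 passed or reached an unadjusted p under 0.05 (limma, smallest adjusted p 0.547). With SNRPB at an average of 341 ± 19.3 FPKM in K29Q and 364 ± 47.9 FPKM in WT (SD, n = 3 each), the ring genes spread widely in level, and SNRPD1, the lowest, averaged 15.1 ± 1.23 FPKM in K29Q and 16.0 ± 1.48 FPKM in WT. SNRPE had 85.8, 88.7 and 87.0 FPKM in K29Q 1 to 3, against 92.2, 89.5 and 95.7 FPKM in WT 1 to 3. It was the one ring gene whose groups did not overlap, at a log2 fold change of −0.08 (SE 0.055, adjusted p = 0.547). SNRPD3 overlaps GGT1 on the same strand in the annotation. SNRPN, a close relative of SNRPB, was listed at 0.01 FPKM or less in every library.

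The U2 snRNP genes outside SF3B were SF3A1, SF3A2 and SF3A3, whose products form the SF3A trimer beside SF3B, and SNRPA1 and SNRPB2, which sit together on a stem loop of U2 snRNA. All 5 log2 fold changes lay below 0, with a median of −0.10, and 0 of 5 passed or reached an unadjusted p under 0.05 (limma). Within both flow cells 3 of the 5 lay below 0, where 29% of all tested genes did. SNRPA1 had 12.4, 12.8 and 12.8 FPKM in K29Q 1 to 3, against 13.2, 13.8 and 14.1 FPKM in WT 1 to 3. The groups did not overlap, and the log2 fold change was −0.11 (SE 0.058, adjusted p = 0.475). SNRPB2, its partner, averaged 24.9 ± 1.76 FPKM in K29Q and 25.6 ± 1.82 FPKM in WT (SD, n = 3 each). SF3A2 had the lowest log2 fold change of the class, −0.18, with 63.4, 49.5 and 49.7 FPKM in K29Q 1 to 3, against 55.2, 57.9 and 71.5 FPKM in WT 1 to 3. K29Q 1 lay above WT 1 and WT 2 there, the SE was 0.133, and the adjusted p was 0.588. SF3A1 and SF3A3 averaged 22.9 ± 0.331 and 20.9 ± 1.89 FPKM in K29Q, against 24.7 ± 1.57 and 21.8 ± 1.19 FPKM in WT.

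The U2-associated proteins were the class with the widest range of differences, from −0.13 (CHERP) to 0.33 (DDX46) on the log2 scale, and 5 of 9 lay above 0. DDX46 (human Prp5), an ATPase that acts when U2 engages the branch site, had 15.2, 13.2 and 15.2 FPKM in K29Q 1 to 3, against 14.1, 9.62 and 10.6 FPKM in WT 1 to 3. WT 1 lay among the K29Q libraries, and the other WT libraries lay below all of them. The log2 fold change was 0.33 (SE 0.136, limma, unadjusted p = 0.0429, adjusted p = 0.392). DDX46 (ENSG00000145833) lies on chromosome 5 from 134758771 to 134855133 on the plus strand (GRCh38), and the annotated C5orf24 overlaps it on the same strand with a mean FPKM of 2.01. U2SURP (SR140) had 8.32, 7.86 and 9.29 FPKM in K29Q 1 to 3, against 8.45, 5.84 and 6.36 FPKM in WT 1 to 3. WT 1 again lay with the K29Q libraries, and the log2 fold change was 0.28 (SE 0.129, adjusted p = 0.424).

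DHX15 (human Prp43), the helicase that takes apart spent and faulty spliceosomes, had 25.2, 25.6 and 26.4 FPKM in K29Q 1 to 3, against 27.5, 21.1 and 22.9 FPKM in WT 1 to 3. WT 1 was the highest library of all, and the K29Q minus WT difference of 0.12 on the log2 scale (SE 0.098, limma, adjusted p = 0.635) changed sign to −0.038 after correction for GC content and length. CHERP and RBM17, which associate with U2SURP, had log2 fold changes of −0.13 (SE 0.093) and −0.07 (SE 0.064), with averages of 19.2 ± 1.93 and 10.9 ± 0.284 FPKM in K29Q, against 21.1 ± 1.77 and 11.5 ± 0.637 FPKM in WT (SD, n = 3 each). HTATSF1, a U2 factor that binds SF3B1, averaged 22.1 ± 0.964 FPKM in K29Q and 23.7 ± 1.79 FPKM in WT. DDX42, a helicase that binds SF3B, averaged 13.7 ± 1.30 FPKM in K29Q and 13.0 ± 0.903 FPKM in WT. DNAJC8, a J-domain protein found with U2, averaged 42.4 ± 3.05 FPKM in K29Q and 41.9 ± 1.66 FPKM in WT. The groups overlapped for all 9 genes of this class.

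Among the U5 and tri-snRNP proteins 4 of 7 genes were lower in K29Q without overlap, where 9.00% of all tested genes were: PRPF8, EFTUD2, PRPF3 and PRPF4. Over the 7 genes the median log2 fold change was −0.13, 6 lay below 0, with a median of −0.18 in flow cell A and of −0.11 in flow cell B. PRPF8, the scaffold that cradles the catalytic RNA, had 43.7, 42.6 and 44.9 FPKM in K29Q 1 to 3, against 46.8, 50.7 and 48.3 FPKM in WT 1 to 3. Its log2 fold change was −0.15 (SE 0.058, limma, unadjusted p = 0.0384, adjusted p = 0.389). PRPF4, which with PRPF3 binds the U4/U6 duplex, had 21.6, 23.2 and 22.4 FPKM in K29Q 1 to 3, against 24.9, 26.1 and 24.3 FPKM in WT 1 to 3. Its log2 fold change was −0.16 (SE 0.061, unadjusted p = 0.0337, adjusted p = 0.389). PRPF3 had 9.11, 8.96 and 9.11 FPKM in K29Q 1 to 3, against 10.2, 10.2 and 9.67 FPKM in WT 1 to 3.

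The PRPF3 groups did not overlap and differed by −0.13 on the log2 scale (SE 0.057, limma, adjusted p = 0.403). EFTUD2, the U5 GTPase, had 7.80, 7.99 and 7.55 FPKM in K29Q 1 to 3, against 8.70, 9.10 and 8.19 FPKM in WT 1 to 3. Its log2 fold change was −0.14 (SE 0.064, adjusted p = 0.426). SNRNP200 (human Brr2), the helicase that unwinds U4 from U6, averaged 46.7 ± 1.49 FPKM in K29Q and 48.4 ± 1.75 FPKM in WT (SD, n = 3 each), and its groups overlapped. The bridging proteins PRPF6 and PRPF31 averaged 35.8 ± 0.959 and 28.3 ± 0.985 FPKM in K29Q, against 39.0 ± 2.94 and 28.1 ± 1.46 FPKM in WT. PRPF8 (ENSG00000174231) lies on chromosome 17 from 1650629 to 1684882 on the minus strand, and PRPF4 (ENSG00000136875) on chromosome 9 from 113275343 to 113292905 on the plus strand, where CDC26 overlaps it by 247 bases on the other strand.

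The NTC proteins PRPF19 and CDC5L, which work in the same complex, had log2 fold changes of opposite sign. PRPF19, the ubiquitin ligase that gives the complex its name, had 57.5, 52.6 and 51.7 FPKM in K29Q 1 to 3, against 58.2, 63.1 and 66.1 FPKM in WT 1 to 3. The groups did not overlap, though K29Q 1 and WT 1 were close, and the log2 fold change was −0.21 (SE 0.073, limma, unadjusted p = 0.0251, adjusted p = 0.378). CDC5L, a Myb-like scaffold of the complex, had 9.20, 9.54 and 10.3 FPKM in K29Q 1 to 3, against 9.50, 7.57 and 7.09 FPKM in WT 1 to 3. WT 1 lay within the K29Q range, and the log2 fold change was 0.25 (SE 0.107, adjusted p = 0.404). PRPF19 (ENSG00000110107) lies on chromosome 11 from 60890730 to 60906588 on the minus strand, and CDC5L (ENSG00000096401) on chromosome 6 from 44387525 to 44450426 on the plus strand (GRCh38).

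The helicases of the catalytic steps are DHX16 (human Prp2), which readies the spliceosome for branching, DHX38 (human Prp16), which acts between the steps, and DHX8 (human Prp22), which releases the mRNA. DHX16 had 22.1, 22.4 and 22.1 FPKM in K29Q 1 to 3, against 23.1, 23.6 and 25.5 FPKM in WT 1 to 3. DHX38 had 17.4, 16.4 and 16.4 FPKM in K29Q 1 to 3, against 17.5, 18.3 and 19.8 FPKM in WT 1 to 3. Neither gene's groups overlapped, and the log2 fold changes were −0.11 (SE 0.061, limma, adjusted p = 0.475) for DHX16 and −0.14 (SE 0.067, adjusted p = 0.44) for DHX38. DHX8 averaged 7.79 ± 0.591 FPKM in K29Q and 8.25 ± 0.163 FPKM in WT (SD, n = 3 each), with overlap. DHX8 shares its locus with ETV4, annotated on the other strand with a mean FPKM of 10.3, and the sources used here do not say whether strand was used in counting.

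**Figure D3:**
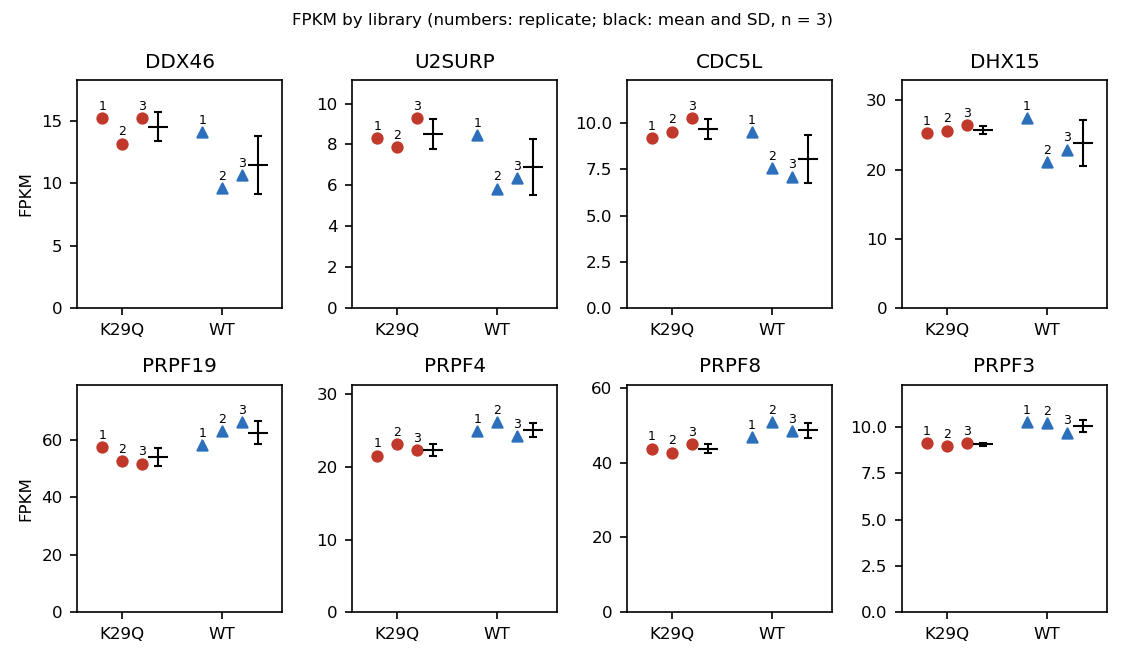
FPKM in each library for 4 genes with positive and 4 with negative log2 fold changes, from those with the smallest p in each direction; K29Q (red circles) stands left of WT (blue triangles), numbers are replicates, and black marks give the mean and SD of 3 libraries. In the upper row WT 1 lies above WT 2 and WT 3 in every panel, and in the lower row all K29Q values lie below all WT values.

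The library WT 1 divided the genes. Without it the groups of DDX46, U2SURP, CDC5L and DHX15 did not overlap, with K29Q higher, and their log2 fold changes were 0.48, 0.42, 0.36 and 0.22. The adjusted p-values without WT 1 were 0.0722, 0.0797, 0.0767 and 0.148 (limma over all genes), so 0 of the 40 genes passed there too, where 0.151% of all tested genes did (0.128% higher and 0.0226% lower). In that setting 9 of the 40 genes reached an unadjusted p under 0.05, 4 higher and 5 lower, where 20.5% of all tested genes did (14.4% higher and 6.07% lower). Lower without overlap were 15 genes and higher 4, where 16.1% and 22.6% of all tested genes were (38.6% together). The transcripts of these 4 genes were poor in GC, at 38.7% for DDX46, 36.2% for U2SURP, 38.8% for CDC5L and 35.2% for DHX15, against a median of 50.6% over the 40 genes. Low GC content did not set them apart, since SNRPF (35.4%), SNRPB2 (37.5%) and SNRPG (39.7%) were also GC-poor. Their log2 fold changes over all 6 libraries were −0.09, −0.04 and −0.06. Across the 40 genes the log2 fold change was lower at higher GC content of the longest transcript (Pearson r = −0.479, Spearman rho = −0.411, n = 40 genes from the same 6 libraries), and across 13108 annotated genes Pearson r was −0.364. The slope of log2 expression per 10% of GC content lay between −0.069 and 0.018 in the K29Q libraries and between −0.041 and 0.118 in the WT libraries, with WT 3 highest, relative to the mean of all 6.

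With the GC and length trend of every library removed by a spline, Pearson r with GC content was 0.118. The log2 fold changes of DDX46, U2SURP and CDC5L were then 0.18, 0.09 and 0.09, while those of PRPF19, PRPF4, PRPF8 and PRPF3 were −0.15, −0.13, −0.16 and −0.12. Of the 40 genes 0 passed the adjusted threshold after the correction (limma, smallest adjusted p 0.221), where 0.618% of all tested genes passed (0.458% higher and 0.160% lower). At an unadjusted p under 0.05 there were 8 of the 40, where 15.1% of all tested genes lay (7.24% higher and 7.90% lower). The 7 lower ones were SNRPD1, SNRPA1, PRPF3, PRPF4, PRPF8, PRPF19 and DHX38, and the higher one was SF1. Groups did not overlap for 11 genes, 10 lower and 1 higher (SF1), where 22.8% of all tested genes did not overlap (12.6% lower and 10.2% higher). The 10 lower genes were not the same as before the correction. EFTUD2 and SNRPE now overlapped between the groups, and SNRPD1 and U2AF2 no longer did.

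**Figure D4:**
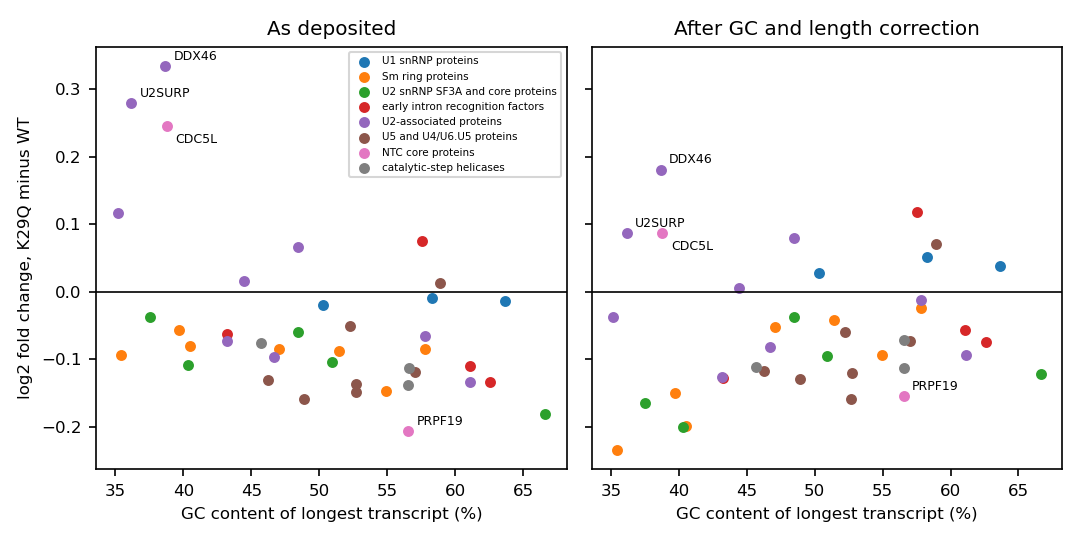
Log2 fold change (K29Q minus WT) of the 40 genes against the GC content of the longest transcript, on the values as deposited (left) and with the GC and length trend of every library removed (right). DDX46, U2SURP and CDC5L stand above the rest on the left at 0.33, 0.28 and 0.25, and at 0.18, 0.09 and 0.09 on the right.

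A further 83 splicing genes in 8 lists were read from the same fit. Of these 0 passed (limma, smallest adjusted p 0.11 for PHF5A), and 14 reached an unadjusted p under 0.05, 10 higher and 4 lower in K29Q. Over all tested genes 12.5% reached that level (7.65% higher and 4.89% lower). Of the 83 genes 40 lay above 0 and 43 below 0, with a median of 0.00. The 7 SF3B genes, PHF5A included, had a median of −0.09, and SF3B1, the largest subunit of the complex, had 36.8, 36.5 and 36.6 FPKM in K29Q 1 to 3, against 36.9, 28.8 and 28.2 FPKM in WT 1 to 3. The additional tri-snRNP proteins lay below 0 for 9 of 10 genes with a median of −0.07, and SART1, which is needed for tri-snRNP recruitment, had the smallest p (20.3, 19.1 and 19.5 FPKM in K29Q 1 to 3, against 21.7, 23.5 and 24.7 FPKM in WT 1 to 3, adjusted p = 0.342). Of the 8 LSm genes 6 lay below 0, with a median of −0.01, and LSM4 had the smallest p (log2 fold change −0.26, adjusted p = 0.397).

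The auxiliary U1 factors, which help U1 choose 5′ splice sites, lay above 0 for 8 of 8 genes, with a median log2 fold change of 0.25, and 4 reached an unadjusted p under 0.05, all higher, where 7.65% of all tested genes did, while 0 passed (limma). LUC7L3 had 15.5, 15.3 and 17.01 FPKM in K29Q 1 to 3, against 13.9, 11.3 and 11.1 FPKM in WT 1 to 3, which differed by 0.37 on the log2 scale (SE 0.095, adjusted p = 0.293). Their median GC content was 38.4%, and after the correction their median log2 fold change was 0.12 and 2 of 8 reached an unadjusted p under 0.05, where 7.24% of all tested genes were higher at that level. Among B complex and step II factors 8 of 13 lay above 0 with a median of 0.03, and CWC22, which loads the exon junction complex, had the smallest p (log2 fold change 0.38, SE 0.102, adjusted p = 0.324). The other NTC proteins had a median of 0.05 with 8 of 14 above 0, and CRNKL1 had the smallest p (0.22, adjusted p = 0.372). The minor spliceosome proteins had a median of −0.03 with 3 of 7 above 0, and RNPC3 had the smallest p (0.22, adjusted p = 0.368). The snRNP assembly factors had a median of 0.00 with 8 of 16 above 0, and STRAP, a partner of the SMN complex, had the smallest p (−0.20, adjusted p = 0.391). After GC and length correction the log2 fold changes were 0.20 for LUC7L3, 0.27 for CWC22, 0.13 for CRNKL1, 0.06 for RNPC3 and −0.22 for STRAP.

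**Figure D5:**
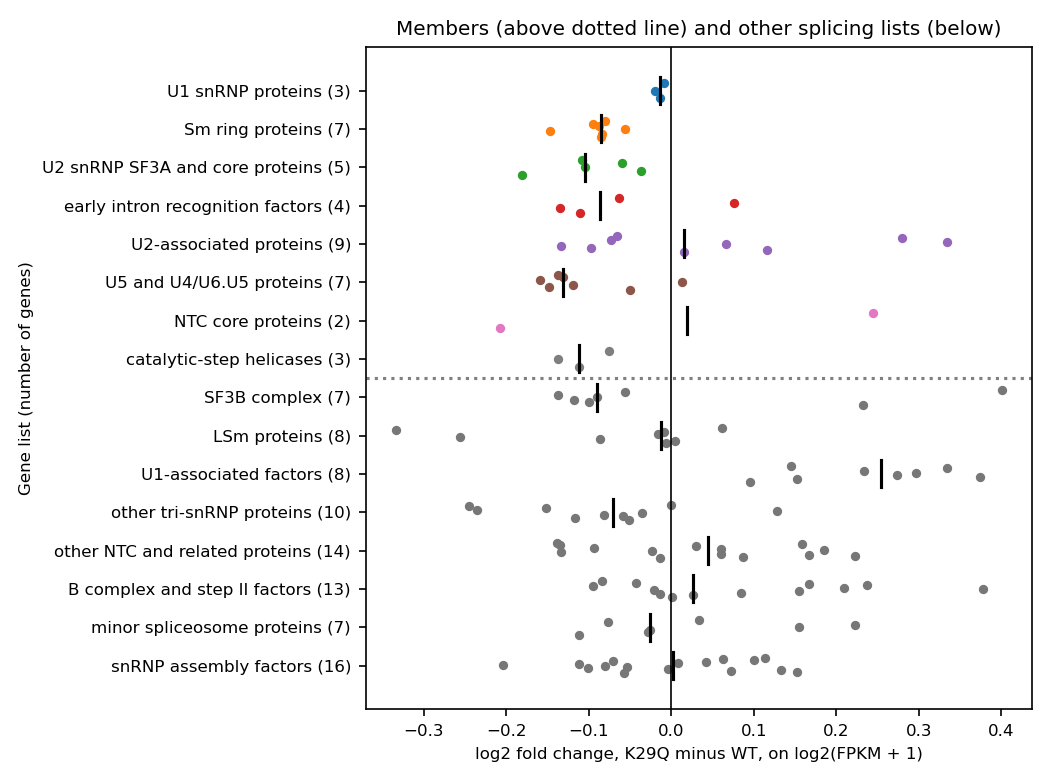
Log2 fold change (K29Q minus WT, on log2(FPKM + 1)) of every gene in the role classes of the 40 genes (above the dotted line) and in 8 further splicing lists (below it); black bars are list medians. The medians of the Sm, U2 snRNP, early intron recognition, U5 and tri-snRNP and helicase classes lie between −0.13 and −0.09. Those of the U1 snRNP, U2-associated and NTC classes are −0.01, 0.02 and 0.02, and the U1-associated factors lie at 0.25.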

How the data were processed

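The deposited table holds FPKM, with a column for each library, per the file headers. The submitters' processing notes name HISAT2 2.1.0, StringTie and the GRCh38 build. The sources used here do not give the annotation release, the settings or the strand option, and 0 columns belonged to other samples. FPKM values are not counts; depth was estimated from the steps in the values of single-exon genes over 600 nt, taking 1 step as 1 fragment, and no count test was run. The 13261 genes that reached 1 FPKM in 3 libraries or more were tested as log2(FPKM + 1) with limma 3.58.1 in R 4.3.3 (intensity trend, group as the only term). Positions, transcript lengths and GC contents came from GENCODE 29 by gene ID (57055 of 60675 IDs). The members and lists were chosen with earlier results of these data known. By the naming rule, values per library are given for the 5 genes with the smallest p in each direction, and the most and least abundant gene, and the smallest-p gene of each further list is named; per-library values of LUC7L3, SART1, U2AF1, SF3A2, U2AF2, SF3B1, genes without overlap between groups and the means of other genes were added after their values were seen. No 2 libraries were duplicates (at most 3 identical values). Alternatives were quantile normalization, other filters (none, or a mean of 5 FPKM or more), 0.1 as pseudocount, a replicate block, a flow cell term, spline correction for GC content and length, no intensity trend, and leaving out each library; the script was tested on simulated data.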

Additional observations from a re-analysis of the deposited data

How the results depend on the processing

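Of the 40 genes 0 passed the adjusted threshold under each of the 16 alternative fits (limma), and the smallest adjusted p was 0.0722 (DDX46 without WT 1). Their median log2 fold change stayed between −0.10 and −0.06 under all alternatives run. The count at an unadjusted p under 0.05 (4, of which 3 lower) was 4 with a flow cell term (1 lower), 8 after GC and length correction, 9 when a replicate block and 10 when a flow cell term was added to that correction, and 0 to 9 when single libraries were left out (0 without K29Q 3 or WT 2, 9 without WT 1). The background moved as well: 12.5% in the main fit, 12.7% with the flow cell term and 15.1% on corrected values. On corrected values it was 15.1% with the block and 15.2% with the flow cell term. Leaving out libraries gave 6.52% (K29Q 3) to 20.5% (WT 1) of tested genes, and 7.19% for WT 2. The count without overlap (10) was 10 to 19 with a library left out, 16 without K29Q 1 and 19 without WT 1; over all tested genes the share was 17.8% with all libraries, 23.3% to 38.6% with a library left out, 32.2% without K29Q 1 and 38.6% without WT 1. Over all genes the count past the threshold (7) was 13 with quantile normalization, 2 with no filter, 4 with a flow cell term, 81 after GC and length correction and 5 to 20 with a library left out. PHF5A passed after GC and length correction (log2 fold change 0.44, limma, adjusted p = 0.0168), but not with a replicate block (adjusted p = 0.137) or a flow cell term (adjusted p = 0.0682) added to it. Of 13 genes followed singly, DHX15 was −0.038 after GC and length correction, −0.038 with a replicate block and −0.017 with a flow cell term added, and SNRPB was 0.054 within flow cell A and 0.021 without WT 3; the cause was not tested. SUGP1 has no value at a mean FPKM of at least 5.

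Same-numbered libraries did not all deviate together (Pearson r of −0.14, 0.18 and −0.16 across genes for replicates 1, 2 and 3). The highest r, 0.25, was between K29Q 1 and WT 3. With 3 libraries a group these values cannot settle whether the numbers pair the samples. With the replicate number as a block 3 genes passed over all genes, 1 of the 40 genes (DDX46, higher in K29Q) reached an unadjusted p under 0.05, and 1 gene passed when the block was added to the GC and length correction. The unadjusted background of the block fit was 9.96% of tested genes (6.66% higher and 3.30% lower in K29Q). The precision of each value rests on 3 libraries a group, and the estimated depth leaves SUGP1, the least abundant gene, with about 379 fragments in its lowest library.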
